A study of Mus musculus with 4 samples.

Results

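Acod1 is the gene of aconitate decarboxylase 1, also called Irg1, the enzyme that makes itaconate. It is described here across the leukocytes of mouse pancreatic tumours, with AT38 against vehicle. It was found by its symbol in the gene list of the deposited matrices, where it is 1 of 31053 genes and carries the Ensembl identifier ENSMUSG00000022126. The study asked how AT38, a compound given here only by its code name, changes the immune cells of pancreatic ductal adenocarcinoma. C57BL/6 mice carried orthotopic B6KPC3 tumours, a pancreatic cancer line grown in the pancreas, that were 7 days old when treatment began. The AT38 group received 30 mg/kg of AT38 per day in 1% carboxymethyl cellulose, split over 2 intraperitoneal injections, for 7 days, and the vehicle group received the carrier alone on the same schedule. Tumour cells enriched for CD45 by sorting gave 2 droplet libraries per group, each a pool of 4 mice, so the library is the replicate and differences between single mice within a pool are not seen. The labels give neither the age nor the sex of the mice.

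Itaconate is made in mitochondria by removing a carboxyl group from cis-aconitate, an intermediate of the tricarboxylic acid cycle. In macrophages and neutrophils the gene is known to be switched on strongly by bacterial products and by interferons. Itaconate is known to inhibit succinate dehydrogenase and to modify KEAP1, which releases the transcription factor NRF2. It is best known as a product of activated myeloid cells that limits their inflammatory response and slows the growth of some bacteria.

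In GENCODE release M21 on GRCm38 the gene lies on the plus strand of chromosome 14, from 103046977 to 103056573, with 1 transcript of 5 exons and a coding part of 1464 bases. The 215 bases just before its first exon, at chr14:103046762-103046976, are shown because the genes that followed Acod1 among neutrophils include targets of NF-kB. They come from RefSeq (GRCm38.p6, plus strand, 5′ to 3′), and capitals mark the motif matches described after them.

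Acod1 promoter: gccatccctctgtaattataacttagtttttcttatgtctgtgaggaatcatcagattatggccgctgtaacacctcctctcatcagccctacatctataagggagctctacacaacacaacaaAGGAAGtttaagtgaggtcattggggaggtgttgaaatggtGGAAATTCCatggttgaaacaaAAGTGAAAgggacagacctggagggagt

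The first capitals match AGGAAG, the core bound by ETS factors, the second match GGAAATTCC, an NF-kB motif, and the third match AANNGAAA, a core motif of interferon-regulatory factors. Both strands were searched, the matches do not overlap, and the motifs were chosen after the sequence had been seen. Of 32851 RefSeq promoters, 25.5% hold the ETS motif, 0.253% the NF-kB motif and 18.9% the interferon motif in the same window. No match was found to TTCNNNGAA (STAT factors), TTGCNNAA (C/EBP) or TGACNNNGC (the antioxidant response element bound by NRF2), which 6.14%, 8.60% and 8.46% of promoters hold. The NF-kB match lies 85 to 77 bases before the RefSeq start and the interferon match 63 to 56 bases before it. A match shows only that these letters are present.

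The 4 libraries hold 24294215 to 34386076 UMIs (unique molecule counts) over 18001 barcodes, and 14254 cells were kept. Unsupervised clustering, from which Acod1 was left out, gave 29 clusters, of which 26 were named from marker genes. Neutrophils made up 27.1% and 26.8% of the kept cells in the AT38 libraries, against 35.1% and 35.4% in the vehicle libraries. Their median depth was 2137 and 2316.5 UMIs with AT38 and 2317 and 1956 with vehicle. Although the cells were sorted for CD45, 222 epithelial cells, 38 fibroblasts and 11 acinar cells were among those kept. Among the kept cells, 14 barcode strings occur in more than 1 library.

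Acod1 was first of all a transcript of neutrophils. The 4481 neutrophils held 54259 of the 62749 Acod1 UMIs of all kept cells, or 86.5%. Levels are given as CPM, the Acod1 UMIs of a cell class in 1 library per 1000000 UMIs of that class. Neutrophils stood at 4304 and 4345 CPM in the AT38 libraries and at 5299 and 4963 CPM in the vehicle libraries. An Acod1 UMI was found in 93.0% of neutrophils, the median neutrophil carried 10 and the highest 110. Over the 4 libraries the level of neutrophils was 18.0 times that of mononuclear phagocytes (monocytes and macrophages) and 265 times that of T cells.

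Below the neutrophils, the other classes followed at a wide distance. The macrophage clusters averaged 292 ± 55.1 CPM and the monocyte cluster 163 ± 41.9 CPM (SD, n = 4 libraries), and their ranges did not overlap. Mature dendritic cells, which express Ccr7 and Fscn1, averaged 105 ± 46.5 CPM, mast cells and basophils 85.0 ± 42.5, cDC1 59.6 ± 40.9 and cDC2 52.5 ± 30.4, so these neighbours did not differ beyond their spread. T cells as a whole stood at 17.8 ± 4.49 CPM, B cells at 14.9 ± 14.9 and NK cells at 12.3 ± 6.69. Across the 12 classes plotted, neutrophils were the only one whose lowest library lay above every library of every other class.

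**Figure D1:**
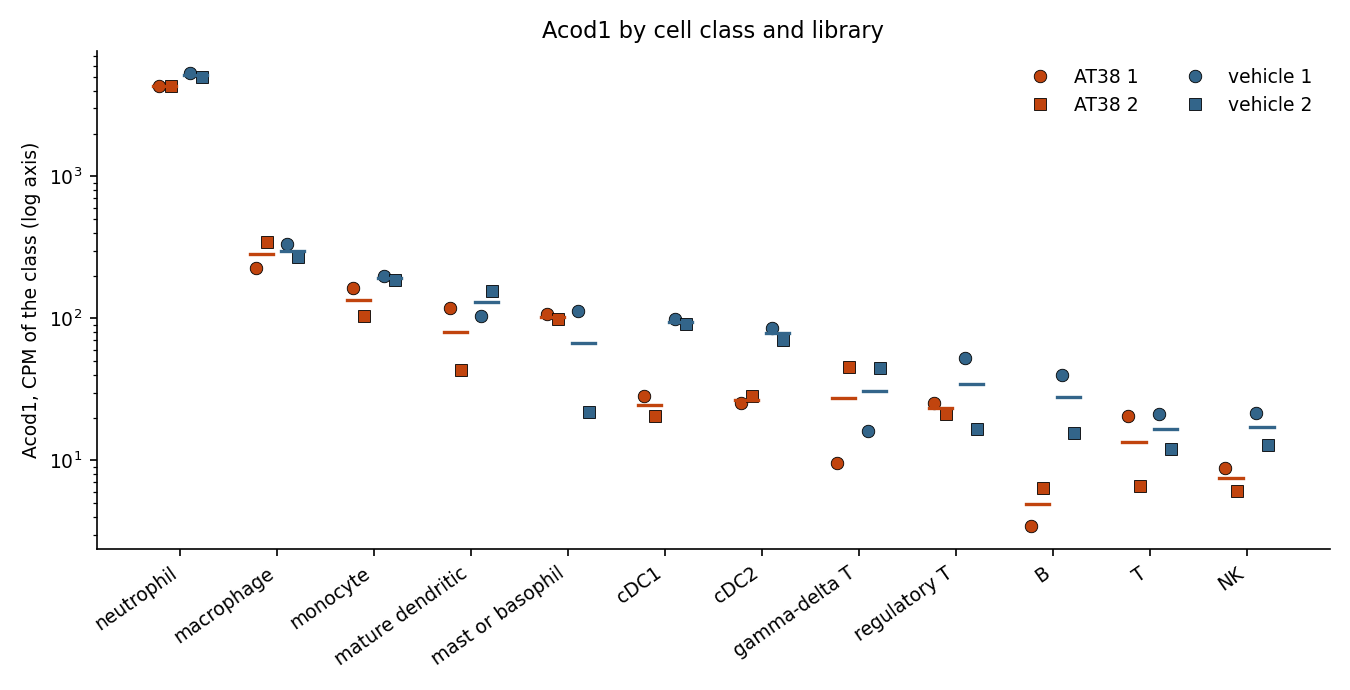
Acod1 level (CPM, log axis) in 12 cell classes. Each point is 1 library, AT38 in red left of vehicle in blue, and lines are group means. Neutrophils lie between 4304 and 5299 CPM, and no other class exceeds 342 CPM in any library.

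Lymphocytes are not known as sources of Acod1, and their shares are given as the background of free RNA and mixed droplets. After thinning every cell to 1000 UMIs, 1.12% of T cells with AT38 and 1.90% with vehicle had an Acod1 UMI, against 13.9% with AT38 and 18.7% with vehicle in mononuclear phagocytes. Thinned to 500 UMIs, the phagocyte share was 10.2% with AT38 and 10.2% with vehicle, so the gap seen at 1000 UMIs was absent there. In neutrophils the share at 1000 UMIs was 85.5% with AT38 and 88.7% with vehicle. For B cells the thinned shares were 0.331% with AT38 and 0.891% with vehicle, and for NK cells 0.388% with AT38 and 1.42% with vehicle. B cells were at 3.097 and 5.558 CPM with AT38 (4 UMIs in each library), against 35.92 and 15.03 CPM with vehicle (48 and 25 UMIs), and the groups did not overlap, as for 26.7% of genes with AT38 lower. In vehicle replicate 1, 30 of the 48 UMIs sat in 1 B cell. NK cells were at 8.85 and 6.10 CPM with AT38, against 21.4 and 12.9 CPM with vehicle, without overlap, as for 19.4% of genes. Both classes rest on few UMIs.

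In dendritic cells and mononuclear phagocytes, most cells with 10 or more Acod1 UMIs also carried S100a8 and S100a9. These encode the subunits of calprotectin, an abundant neutrophil protein that monocytes can make too, so the source of these UMIs, and its part in the levels of both classes, was not tested. For each 1000 UMIs of the pair, neutrophils held 81.3 and 80.8 Acod1 UMIs with AT38 and 85.7 and 75.9 with vehicle. Phagocytes held 150 and 185 with AT38 and 274 and 154 with vehicle, and dendritic cells 155 and 500 with AT38 and 143 and 137 with vehicle, all above the neutrophil ratio. The background classes varied more. T cells held 203 and 80.7 with AT38 and 51.3 and 241 with vehicle, and B cells 80.0 and 97.6 with AT38 and 369 and 166 with vehicle. NK cells held 19.1 and 133 with AT38 and 261 and 227 with vehicle. A ratio above that of neutrophils was therefore not particular to phagocytes and dendritic cells. Of the 54 dendritic cells with 10 or more Acod1 UMIs, 90.7% had 5 or more S100a8 and S100a9 UMIs, and their median was 52.5. Of the 1374 dendritic cells without an Acod1 UMI, 0.509% did. The top 5% of dendritic cells by Acod1 held 86.8% of the Acod1 UMIs of the class. Among mononuclear phagocytes, 71.1% of the 152 cells with 10 or more Acod1 UMIs passed that S100 minimum, against 21.9% of the 565 cells with 1 to 9 and 1.87% of the 1069 with none. The cells with 10 or more Acod1 UMIs were also deeper, with a median of 17366 UMIs in phagocytes and 25032 in dendritic cells, against 6835 and 12847 in the cells of the same class without Acod1. When cells at or above the S100 minimum were left out, phagocytes kept 110 and 107 CPM with AT38, against 168 and 128 CPM with vehicle. Dendritic cells then kept 20.1 and 4.84 CPM with AT38, against 15.8 and 22.3 CPM with vehicle. This range overlaps that of T cells, from which no cells were left out, so the 2 sets are unlike. Among T cells, 4 cells held 70 Acod1 UMIs, and 75% of those 4 passed the S100 minimum.

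**Figure D2:**
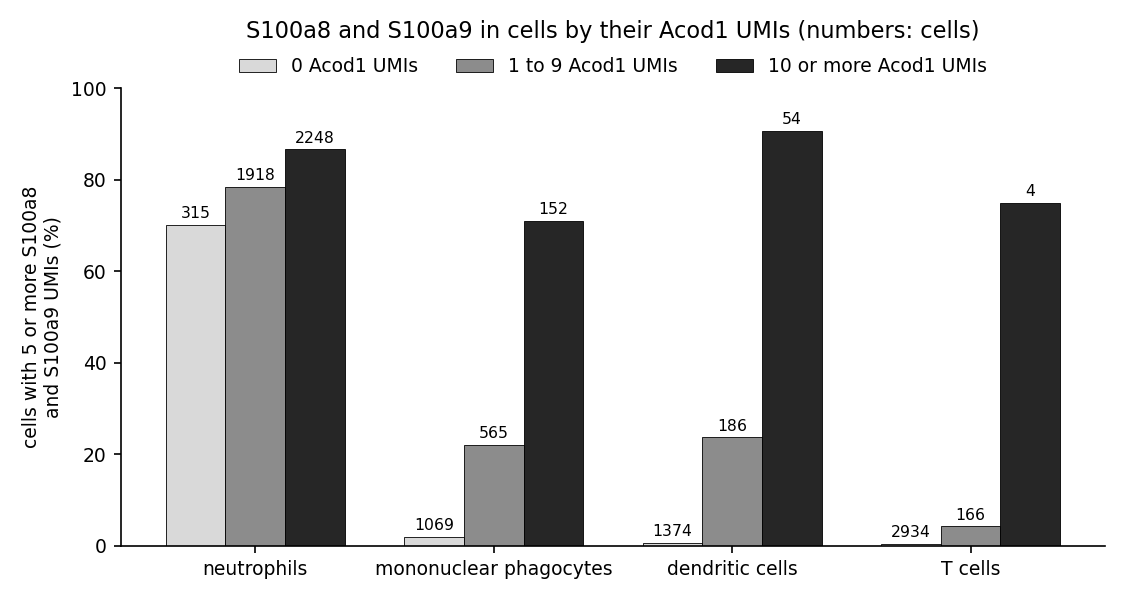
Share of cells (%) with 5 or more S100a8 and S100a9 UMIs, by the number of Acod1 UMIs in the cell, in 4 classes over all libraries. Numbers above the bars are cells. In dendritic cells the share is 0.509% without Acod1 and 90.7% at 10 or more Acod1 UMIs.

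Among neutrophils the level differed between states. Neutrophils were clustered again without Acod1 into 7 groups. The group with interferon genes (Rsad2, Ifit1, Cxcl10; 369 cells) was highest, with 8202 and 8020 CPM in AT38 libraries and 10036 and 9020 CPM in vehicle libraries. Next came the group with Retnlg (1624 cells), a gene typical of blood neutrophils, at 6214 and 6708 CPM with AT38 and 7167 and 6822 CPM with vehicle. A group led by Gm19951 and Il23a (1162 cells) followed at 5284 and 4866 CPM with AT38, against 5600 and 5388 CPM with vehicle. The ranges of these 3 groups over the 4 libraries did not overlap each other. A group led by the heat-shock genes Hspa1b and Hspa1a (279 cells) was at 3266 and 3228 CPM with AT38, against 4323 and 3945 CPM with vehicle. A group led by Adamdec1 with Siglecf (845 cells) was low, at 2180 and 1886 CPM with AT38, against 2657 and 2307 CPM with vehicle. A small group of 150 cells led by Ccl5, with the T cell gene Trbc2 among its leading genes, stood at 2527 and 2743 CPM with AT38, against 3959 and 3934 CPM with vehicle. Summed CPM of the 7 T cell markers was 420 to 851 in that group, against 54.9 to 94.9 over all neutrophils. The 52 cells with granule genes of immature neutrophils (Ngp, Camp, Ltf) had 2680 and 1147 CPM with AT38, from 6 and 5 cells, and 292 and 912 CPM with vehicle, from 12 and 29 cells. Since these groups come from clustering the same cells, the order is a description.

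**Figure D3:**
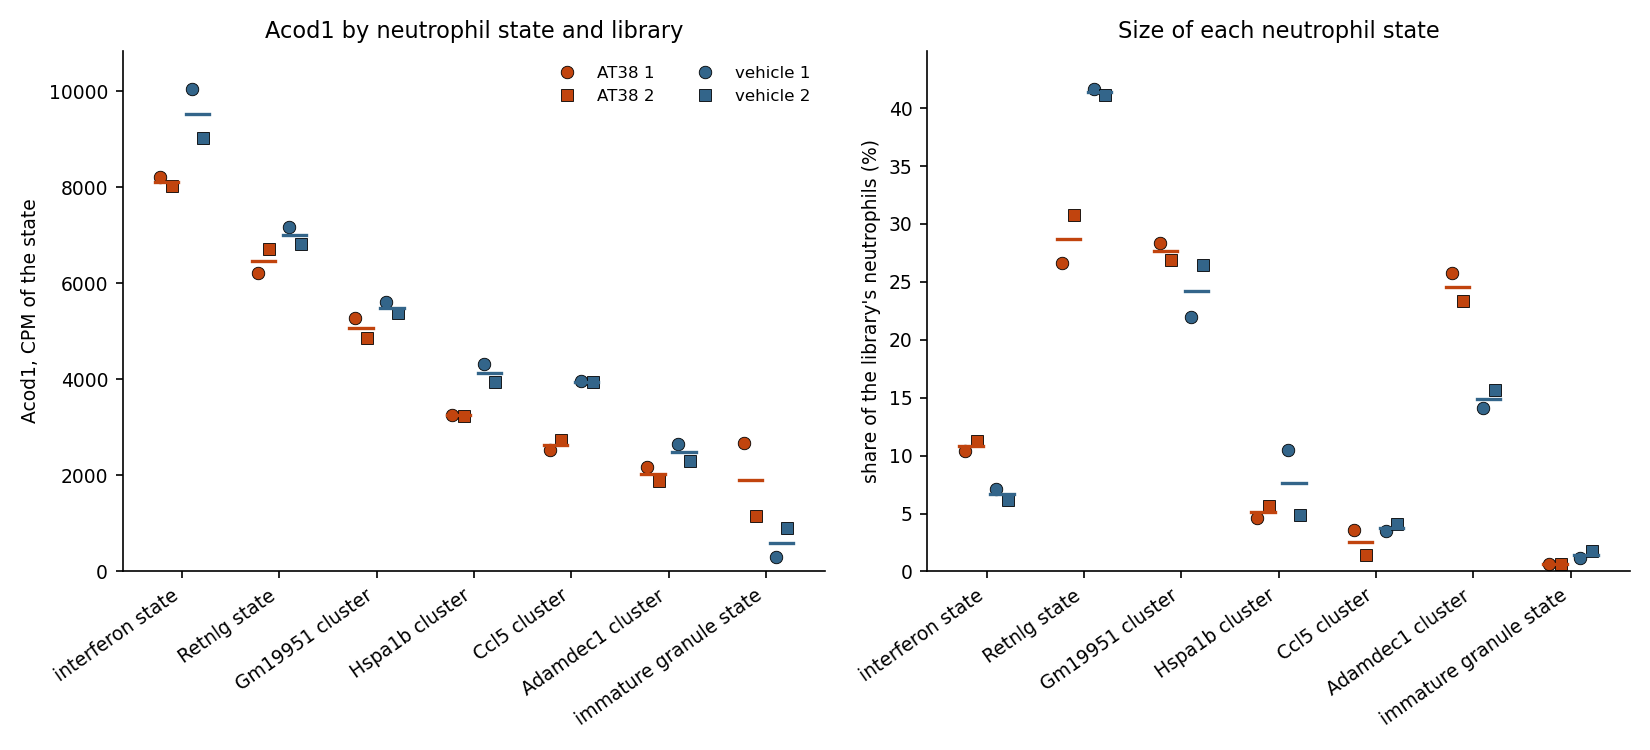
Left, Acod1 level (CPM) in 7 groups of neutrophils; right, each group's share (%) of its library's neutrophils. Points are libraries, AT38 in red left of vehicle in blue, and lines are group means. Acod1 is highest in the interferon group, at 8020 to 10036 CPM, and AT38 lies below vehicle in all groups but the granule group.

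With AT38, Acod1 fell in the neutrophils. Both AT38 libraries (4304 and 4345 CPM) lay below both vehicle libraries (5299 and 4963 CPM), as did 14.4% of the 8425 genes tested. The log2 fold change was -0.36 ± 0.08 (SE; 95% interval -0.52 to -0.21) with edgeR's quasi-likelihood test on UMIs summed per library (Benjamini-Hochberg adjusted p = 0.00527). In that comparison 417 genes (4.95%) passed an adjusted p of 0.05, of which 128 (1.52%) rose and 289 (3.43%) fell, and Acod1 ranked 142 by p. The size rests in part on the scaling. TMM scaling, used here, sets the median of all genes near 0 and gave factors of 1.04 for both AT38 libraries and 0.961 and 0.959 for the vehicle libraries. With total UMIs alone the median of all genes was 0.12, 344 genes rose and 166 fell, and Acod1 was at -0.25 ± 0.08 (adjusted p = 0.0560), which misses the threshold. Without vehicle replicate 1 it also missed it (-0.32, adjusted p = 0.142), and the genes that passed then numbered 122. Without vehicle replicate 2 they numbered 193, and Acod1 passed (-0.41, adjusted p = 0.0467). Summed CPM of the 10 neutrophil markers was 68224 and 68287 with AT38, against 76001 and 81314 with vehicle, and its part in the result was not tested.

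Over all kept cells, where the value also moves with the share of neutrophils, the difference was larger. Acod1 was at 487 and 511 CPM in the AT38 libraries and at 794 and 782 CPM in the vehicle libraries, a mean that was 36.7% lower with AT38. Both AT38 libraries lay below both vehicle libraries, as for 23.9% of genes. The log2 fold change was -0.66 ± 0.06 (SE; edgeR adjusted p = 0.00273), in a comparison where 281 of 14514 genes (1.94%) passed. The call held without each library in turn (-0.69 to -0.63), while the genes that passed numbered 96 without vehicle replicate 1 and 181 without vehicle replicate 2. Neutrophils contributed 9.87% ± 0.728 of all UMIs with AT38 and 13.4% ± 0.632 with vehicle (SD, n = 2). From summed values alone, fewer neutrophils and less Acod1 per neutrophil cannot be told apart.

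Single cells gave the same direction, and its size varied with depth. After thinning to 1000 UMIs, neutrophils averaged 4.80 and 5.07 Acod1 UMIs in the AT38 libraries, against 5.84 and 5.46 in the vehicle libraries. The share of neutrophils with an Acod1 UMI was 85.8% (95% exact interval 83.3 to 88.0) and 85.2% (82.5 to 87.6) with AT38. It was 89.6% (87.5 to 91.4) and 87.9% (86.1 to 89.4) with vehicle. Intervals cover counting error only, and the 47 to 113 neutrophils per library below 1000 UMIs were left out. The difference of the means was -3.22 percentage points, and the exact two-sided permutation p was 0.333, the smallest that 2 against 2 libraries allow. Before thinning, the shares were 92.6% ± 0.254 with AT38 and 93.4% ± 1.03 with vehicle (SD, n = 2). With neutrophils split by total UMIs into 4 equal groups, Acod1 in the deepest group stood at 3035 and 2945 CPM with AT38, against 4310 and 3497 CPM with vehicle. In the third group it stood at 5092 and 5336 CPM with AT38 and 6344 and 5345 CPM with vehicle. In the second, where the groups overlapped, it stood at 5607 and 6193 CPM with AT38 and 6229 and 6047 CPM with vehicle. In the shallowest group it stood at 5962 and 6191 CPM with AT38, against 6385 and 6195 CPM with vehicle.

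The mix of neutrophil states differed between the groups too. The Retnlg group was 28.7% ± 2.95 of neutrophils with AT38 and 41.4% ± 0.340 with vehicle, and the Adamdec1 group, with low Acod1, was 24.5% ± 1.73 with AT38 and 14.9% ± 1.07 with vehicle (SD, n = 2). The interferon group, with the highest Acod1, was 10.9% ± 0.628 with AT38 and 6.65% ± 0.713 with vehicle. When every library was given the same mean make-up of states, Acod1 averaged 4465 ± 74.9 CPM with AT38 and 5010 ± 222 CPM with vehicle, 10.9% lower with AT38. As measured it was 15.7% lower. When every state was given its mean level and only the make-up varied, the means were 4608 ± 117 CPM with AT38 and 4866 ± 20.3 CPM with vehicle, 5.31% lower. In each of these 3 views both AT38 libraries lay below both vehicle libraries, and the exact two-sided permutation p was 0.333. As measured, 14.4% of genes behaved so, and for the other views that share was not computed. All 3 views come from the same counts. These values rest on 1 clustering and were recomputed only with libraries left out. Each of the 4 other cell filters or clusterings tried gave no tested group with the name of the Gm19951 group, and 1 of them none with that of the Adamdec1 group.

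**Figure D4:**
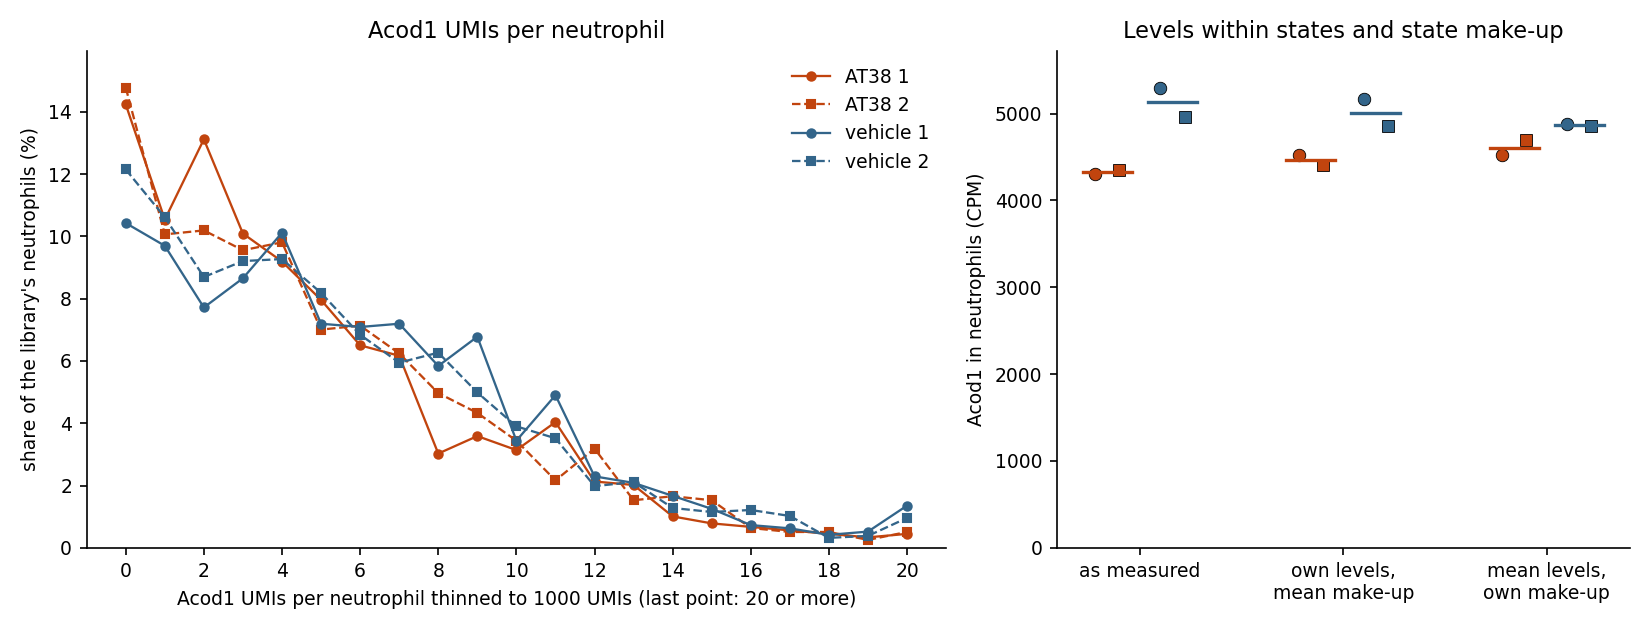
Left, share (%) of each library's neutrophils by Acod1 UMIs after thinning to 1000 UMIs. Right, Acod1 level (CPM) in neutrophils as measured, with own levels at the mean state make-up, and with mean levels at the own make-up, AT38 left of vehicle. The AT38 libraries hold more neutrophils with 0 UMIs (14.2% and 14.8%, against 10.4% and 12.1%).

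Within single states the direction was the same but no test passed. The log2 fold changes were -0.13 ± 0.11 in the Retnlg group (edgeR adjusted p = 0.709) and -0.14 ± 0.10 in the Gm19951 group (adjusted p = 0.691). They were -0.30 ± 0.11 in the Adamdec1 group (adjusted p = 0.532), -0.28 ± 0.13 in the interferon group (adjusted p = 0.633) and -0.39 ± 0.19 in the heat-shock group (adjusted p = 0.477). Before adjustment 2 of the 5, the Adamdec1 and the interferon group, were under the threshold of 0.05, and with DESeq2 0 passed after adjustment. In the order above, 82 of 4528, 48 of 4510, 9 of 6518, 8 of 2561 and 5 of 2159 genes passed, or 1.81%, 1.06%, 0.138%, 0.312% and 0.232%. Both AT38 libraries were below both vehicle libraries in each of the 5, as for 19.9%, 18.8%, 16.7%, 16.4% and 19.9% of the genes tested there. The group led by Ccl5 and the granule group had under 20 cells in a library and were not tested.

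Neutrophils were also split by single transcripts, without clusters. Cells with Il1a, an alarm cytokine of tumour neutrophils, but no Retnlg had 4063 and 4217 CPM of Acod1 with AT38, against 5379 and 4965 CPM with vehicle. Cells with both transcripts had 4607 and 4460 CPM with AT38, against 6008 and 5372 CPM with vehicle. Cells with Retnlg but no Il1a went the other way, with 4712 and 4587 CPM with AT38 and 4387 and 3990.5 CPM with vehicle. Cells with neither had 4949 and 4632 CPM with AT38, against 5231 and 5286 CPM with vehicle. Cells without a UMI of the 6 interferon genes had 3439 and 3616 CPM with AT38, against 4628 and 4421 CPM with vehicle. The mean was lower with AT38 in each of these subsets except the one with Retnlg alone. No test was run, and the share of all genes that behave so was not computed. Cells with 5 or more such UMIs had 5930 and 6057 CPM with AT38 and 6758 and 5852 CPM with vehicle, where the groups overlapped.

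In mononuclear phagocytes the difference did not pass the test. Acod1 was at 211 and 280 CPM with AT38 and at 310 and 250 CPM with vehicle, so the groups overlapped. The log2 fold change was -0.18 ± 0.17 (SE; 95% interval -0.57 to 0.20; edgeR adjusted p = 0.834), in a comparison where 133 of 10762 genes (1.24%) passed. The direction turned without AT38 replicate 1 (0.037), and the call was reached when doublets were not removed (-0.50, adjusted p = 0.0253). Without the cells at or above the S100 minimum the log2 fold change was -0.44 ± 0.14 (adjusted p = 0.275). The macrophage clusters stood at 225 and 342 CPM with AT38, against 332 and 269 CPM with vehicle, and the monocyte cluster at 163 and 105 CPM with AT38, against 199 and 187 CPM with vehicle. The change in phagocytes minus that in neutrophils was 0.16 ± 0.14 (log2; adjusted p = 0.698), and 153 of 10774 genes (1.42%) differed in that test. It passed without AT38 replicate 1 (0.39, adjusted p = 0.0201) and turned without AT38 replicate 2 (-0.048).

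In dendritic cells Acod1 stood at 55.0 and 32.6 CPM with AT38 and at 93.9 and 107.7 CPM with vehicle, and both AT38 libraries lay below both vehicle libraries, as for 27.3% of genes. The log2 fold change was -1.13 ± 0.23 (SE), which did not pass (edgeR adjusted p = 0.536; 3 of 11195 genes, 0.0268%, passed). It passed with DESeq2 (adjusted p = 0.00195), and without AT38 replicate 1 (-1.53) or AT38 replicate 2 (-0.84), when 496 and 32 genes passed. S100a8 and S100a9 together were at 356 and 65.2 CPM in these cells with AT38, against 657 and 786 CPM with vehicle. Without the cells at or above the S100 minimum the log2 fold change was -0.52 ± 0.62 (adjusted p = 0.908).

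Genes that followed Acod1 from cell to cell among neutrophils were looked for within each library, over 2263 genes seen in 10% or more of the neutrophils of every library. Pearson's r of log-scaled counts is given as a description, since cells of a library share their depth and source. The median gene had a mean r of -0.043 over the 4 libraries and the top 1% lay above 0.271. Nfkbia, the NF-kB inhibitor that NF-kB itself induces, came first, with r of 0.412 and 0.472 in the AT38 libraries and 0.497 and 0.467 in the vehicle libraries. Slc7a11, the cystine transporter and an NRF2 target, had 0.377 and 0.457 with AT38 and 0.481 and 0.419 with vehicle. It was the highest of the 9 NRF2 targets compared, whose mean r ran from -0.118 (Hmox1) to 0.434 with a median of 0.054. Srgn, the proteoglycan core of secretory granules, averaged 0.406 ± 0.029 and Nfkbiz, an inducible co-regulator of NF-kB, 0.390 ± 0.054 (SD, n = 4 libraries). Hdc, which makes histamine, averaged 0.363, Nlrp3, an inflammasome sensor, 0.362 and Il1b, its cytokine product, 0.354. Clec4d, a lectin receptor of myeloid cells, averaged 0.352, Ptafr, the receptor of platelet-activating factor, 0.340 and Rnf149, a ubiquitin ligase, 0.336.

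The lowest values were closer to 0. Xist, the RNA of the inactive X chromosome, averaged -0.269, Ppia, a chaperone, -0.260 and Npm1, a nucleolar protein, -0.248. Cox7c, a subunit of cytochrome c oxidase, averaged -0.240 and Zfp36l2, an RNA-decay factor, -0.239. Acod1 itself had an r of -0.087 to -0.172 with the log of total UMIs. With the number of genes seen in the cell, its r was -0.274 and -0.308 in the AT38 libraries and -0.210 and -0.238 in the vehicle libraries. That is near the mean r of the lowest genes, and the part of gene number in their values was not tested. After thinning to 1000 UMIs the 10 leading genes kept mean r of 0.272 to 0.406, and 8 of them remained in the top 10. Within single states each of the 10 leading genes had a lower mean r than over all neutrophils, in each of the 3 largest groups. Nfkbia had a mean r of 0.298 within the Retnlg group, 0.186 within the Gm19951 group and 0.438 within the Adamdec1 group, and Slc7a11 had 0.237, 0.252 and 0.294. Il1b had 0.077 within the Retnlg group and 0.272 within the Adamdec1 group. Of the 9 leading genes with a promoter in the RefSeq table, 3 (Il1b, Nlrp3 and Srgn) held AANNGAAA, as did 18.9% of all promoters. The ETS motif was held by 3 (25.5% of all), the C/EBP motif by 2 (8.6%) and the STAT motif by 1 (6.14%). The antioxidant response motif was held by 0 (8.46% of all). None held GGAAATTCC, but only 0.253% of all promoters do and other NF-kB sequences were not searched. That count therefore cannot show whether these genes have NF-kB sites.

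**Figure D5:**
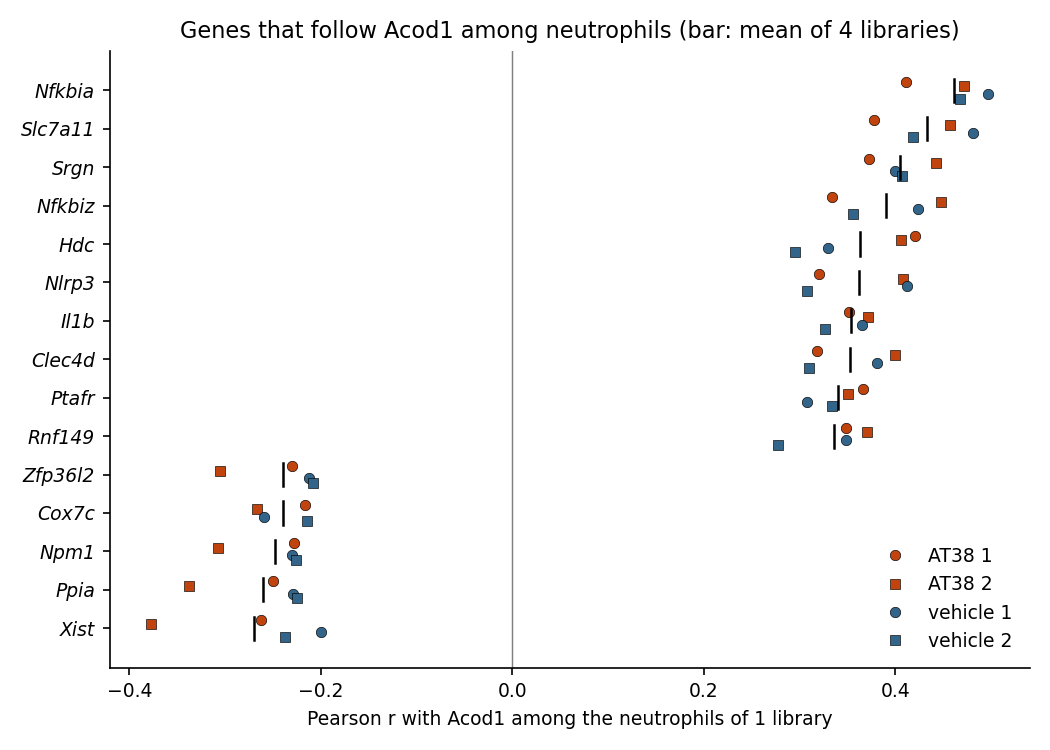
Pearson r with Acod1 among the neutrophils of 1 library, for the 10 highest and 5 lowest genes. Points are libraries, AT38 in red and vehicle in blue, and bars are means of 4 libraries. Nfkbia averages 0.462, and each of the 10 highest genes is positive in all 4 libraries.

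Between the groups, 6 of these 10 genes fell with AT38 in neutrophils and 0 rose (edgeR). Of all 8425 genes tested, 3.43% fell and 1.52% rose. The 10 genes were seen in 80.8% or more of the neutrophils of every library. The share that fell among genes seen as widely was not computed. Slc7a11, Nfkbia, Nfkbiz, Nlrp3 and Il1b also belong to the gene lists read below and are counted again there. Slc7a11 was at 3290 and 3045 CPM with AT38 and at 4650 and 4246 CPM with vehicle (log2 fold change -0.61 ± 0.08, adjusted p = 6.5e-05). Clec4d was lower by a similar amount (-0.54 ± 0.08, adjusted p = 0.000211), and Ptafr, Nfkbia, Nfkbiz and Hdc lay between -0.41 and -0.33. With total UMIs alone as the scale 4 of the 10 fell (Slc7a11, Clec4d, Ptafr and Nfkbia). On that scale 1.97% of all genes fell and 4.08% rose. Nfkbia did not pass without AT38 replicate 1 or without either vehicle library in turn. Of the 5 lowest genes, Cox7c rose (0.40 ± 0.09, adjusted p = 0.0102), and with total UMIs alone Ppia rose too.

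Across the 29 clusters of all cells, the genes whose mean level went most with Acod1 marked neutrophils. They were Clec4e (r = 0.983), G0s2 (0.976), Csf3r (0.971), Clec4d (0.967) and Hcar2 (0.966), from log2 CPM. Clec4e is a lectin receptor, G0s2 a lipase inhibitor, Csf3r the receptor of granulocyte colony-stimulating factor, and Hcar2 a metabolite receptor. G0s2 and Csf3r were among the markers that named the neutrophils.

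The genes around itaconate were read in neutrophils against the 1.52% of all genes that rose and the 3.43% that fell. Of 20 tested genes of the tricarboxylic acid cycle and citrate metabolism, 1 rose and 0 fell, and the median log2 fold change was 0.08, against 0.01 over all genes. The riser was Mdh2, mitochondrial malate dehydrogenase, at 264 and 249 CPM with AT38 and 164 and 187 CPM with vehicle (0.43 ± 0.10, adjusted p = 0.0131). It did not pass without AT38 replicate 1, without vehicle replicate 1 or with DESeq2. A single call among 20 genes lies near the background. Changes of this size were often missed in simulated data, whose spread between libraries was set in advance and not fitted to these libraries. Of the 10 genes for transport, breakdown and sensing of itaconate, only 3 were high enough to test and 0 passed. Oxgr1, reported as an itaconate receptor, had 0 UMIs in the neutrophils of all 4 libraries. Of 12 genes whose proteins itaconate is reported to act on, 1 fell and 0 rose. That was Nfkbiz, at 2564 and 2537 CPM with AT38 and 2969 and 3086 CPM with vehicle (-0.36 ± 0.08, adjusted p = 0.00573). It did not pass without vehicle replicate 1, without vehicle replicate 2 or with total UMIs alone, where Atf3 rose.

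Of 18 tested genes of the signals known to induce Acod1, 3 fell and 1 rose. Cebpb, a myeloid transcription factor, fell (5707 and 5356 CPM with AT38, 6375 and 6596 CPM with vehicle; -0.35 ± 0.08, adjusted p = 0.00745), and so did the bacterial sensors Tlr2 (-0.39 ± 0.09) and Tlr4 (-0.43 ± 0.12). With total UMIs alone those 3 falls did not pass. Of the 3 falls, 1 passed without AT38 replicate 2 and 0 passed without vehicle replicate 1 or without vehicle replicate 2, nor did the rise in those fits. Of 14 NRF2 targets, 9 fell and 0 rose, with a median of -0.60, where 3.43% of all genes fell. Srxn1, sulfiredoxin, was at 43.8 and 35.7 CPM with AT38 and 167 and 145 CPM with vehicle (-2.08 ± 0.14, adjusted p = 2.87e-09). Lower as well was Gclm, a subunit of glutamate-cysteine ligase, the first enzyme of glutathione synthesis (-1.83 ± 0.15, adjusted p = 1.72e-07). With total UMIs alone 6 of the 14 fell (1.97% of all genes fell and 4.08% rose on that scale), and with DESeq2 5 did (1.1% of all genes fell). Of 15 inflammatory myeloid genes, 6 fell and 0 rose, with a median of -0.19, among them Cxcl3 (-1.23 ± 0.12) and Tnfaip3 (-0.58 ± 0.08). With total UMIs alone 5 fell, and Il1a and Il1rn rose.

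In mononuclear phagocytes 0 genes of the first 4 lists passed. Txn1 fell among 13 NRF2 targets and Il6 and Cxcl3 fell among 16 inflammatory genes, where 0.427% of all genes fell. Cxcl3, a neutrophil attractant, was at 114 and 120 CPM with AT38, against 464 and 393 CPM with vehicle (-1.87 ± 0.12, edgeR adjusted p = 2.66e-05). In dendritic cells 0 members of the 6 lists passed with edgeR.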

How the data were processed

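The values deposited are unnormalized UMI counts for each gene in each barcode. Per the submitters' processing notes, Cell Ranger 3.1.0 and mm10 were used. The annotation release is not given in the sources used here. Kept cells had 200 genes or more, 500 UMIs or more (the minimum in the files) and no more than 10% of UMIs from mitochondria. Scrublet (scanpy 1.11.5) scored doublets, and the highest scores were removed at 0.8% per 1000 barcodes (683, or 3.79%). Scrublet's own threshold marked 0.0444% and was not used. Cells were clustered with Leiden at resolution 1 (neutrophils again at 0.5) on 2000 variable genes and 30 components. Clusters were named from marker lists, with rules on low depth, mixed lineages and leading genes worked out with the clusters in view.

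UMIs were summed per library and class and tested with edgeR 4.0.16 (quasi-likelihood, robust, TMM, filterByExpr, two-sided), adjusted over all genes tested, with DESeq2 1.42.0 as an alternative. In simulated neutrophil data, 7.46% of genes changed by 0.25 (log2) and 41.8% of genes changed by 0.5 were recovered. The simulated spread between libraries was set in advance, the same for every gene, and changes were planted only in genes above a UMI minimum. Those shares therefore hold for this setting. Nothing says whether the pools were prepared independently, so p-values measure the spread between these libraries. Named genes followed a rule, namely the 10 highest and 5 lowest correlates, 5 genes across clusters and up to 4 members of each list by p. Other members named (Oxgr1, Atf3, Il1a, Il1rn) were chosen after their values were seen. Unnamed gene models, ribosomal and mitochondrial genes were left out. Some list members are not reported here. The gene and lists were chosen with earlier results of these data known.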

Additional observations from a re-analysis of the deposited data

Results flagged for a closer look

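In 2 subsets of neutrophils the groups were apart in the direction opposite to that of the other subsets, and these differences were not tested. In the group with granule genes Acod1 stood at 2680 and 1147 CPM with AT38 and at 292 and 912 CPM with vehicle, a log2 ratio of 1.67, from 11 cells with AT38 and 41 cells with vehicle. In cells with Retnlg but no Il1a it stood at 4712 and 4587 CPM with AT38 and at 4387 and 3990.5 CPM with vehicle, a log2 ratio of 0.15.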

How the results depend on the processing

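Values are log2 fold changes unless said otherwise. In neutrophils 13 of 15 alternatives kept the direction and the call. The call was lost with total UMIs alone (-0.25, added after seeing the data) and in 1 of the fits that leave out a library, which ranged from -0.41 to -0.32. In all kept cells all 13 kept the call (-0.69 to -0.63 with a library left out). In mononuclear phagocytes the value was -0.50 past the threshold with no doublet removal, and ranged from -0.43 to 0.037 with a library left out. In dendritic cells it passed with DESeq2 (-1.13) and without the filter on low counts (-1.13), and ranged from -1.53 to -0.84 with a library left out. The difference between phagocytes and neutrophils was -0.14 with no doublet removal and -0.048 to 0.39 with a library left out, passing without AT38 replicate 1 (adjusted p = 0.0201). No state passed in 55 alternative fits, all of them below 0 (-0.52 to -0.06). The thinned share differed by -4.61 percentage points at 500 UMIs and by -0.79 without thinning, and by -4.08 to -2.36 with a library left out. Of the 10 leading correlates, 8 to 10 remained in the top 10 under 6 alternatives. The genes that passed numbered 417 in neutrophils, 144 with DESeq2 (22 rose, 122 fell) and 122 and 193 without vehicle replicate 1 or 2. In all kept cells they numbered 281, 438 with DESeq2, 805 without the filter, 107 with the replicate block and 96 to 320 with a library left out. In phagocytes they numbered 133, 420 without the filter, 215 with the block, 221 with no doublet removal and 85 to 170 with a library left out. In dendritic cells they numbered 3, 8 with DESeq2, 154 without the filter, 20 with the block and 0 to 496 with a library left out. For the difference between classes they numbered 153, 230 without the filter and 33 to 355 with a library left out. The cause of these differences was not tested.

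Same-numbered libraries deviated together with an r of 0.0026 in neutrophils, 0.16 in phagocytes and 0.13 in dendritic cells, so with 2 pairs the numbers were not taken to pair the libraries. With the replicate block the value was -0.36 in neutrophils (adjusted p = 0.0264), -0.66 in all kept cells, -0.19 in phagocytes and -1.15 in dendritic cells, and no call changed. Depth limits single states most, since 5 to 29 granule cells per library were seen.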
